A study of Mus musculus with 9 samples.

Results

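Lrrc26 and Kcnma1 encode 2 subunits of the BK channel, and both were followed in whole-tissue RNA of the main olfactory epithelium (MOE) after deletion of TAAR enhancer 2, a regulatory element of the Taar gene cluster on chromosome 10. They are 2 of the 24421 genes with raw counts and 2 of the 19775 genes tested. Lrrc26 was selected on its lower counts in homozygous (homo) than in wild-type (WT) libraries, where it stood out among genes outside the Taar family, and Kcnma1 was added as its channel partner. The homo, heterozygous (het) and WT levels of Lrrc26 are therefore given as a description, with no test of homo against WT, het against WT or homo against het. Kcnma1 was not chosen for its own values and was tested in each comparison.

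RNA was sequenced from 9 libraries, 3 per genotype, of mice at postnatal day 14. The labels give the strain as C57BL/6, while the study's reporting notes place the line, among others, on a mixed background of C57BL/6J and another strain. The labels and the notes therefore differ on the background. WT, het and homo animals came from 1 line that carries the CRISPR-Cas9 deletion in the germline, so that every cell of a homo animal lacks the element and all findings rest on 1 deletion allele. The paper describes the animals of the genotypes as littermates, without saying which libraries share a litter. Neither the sex of each animal nor the meaning of the replicate numbers is given, and the p-values measure the spread between these libraries only. The question behind the genotypes was what the enhancer does for Taar genes. Neither Lrrc26 nor Kcnma1 lies near it.

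BK channels are large-conductance potassium channels opened by membrane depolarisation and by intracellular calcium. Kcnma1 encodes the pore-forming alpha subunit, which also carries the voltage sensor and the calcium-binding domains. Auxiliary beta subunits (Kcnmb1 to Kcnmb4) alter calcium sensitivity, gating speed or inactivation, and gamma subunits (Lrrc26, Lrrc52, Lrrc55 and Lrrc38), which are leucine-rich repeat membrane proteins, shift the voltage range in which the channel opens. LRRC26 gives the strongest shift of the gamma subunits and lets BK channels open at the resting potential of non-excitable cells. It is known from secretory epithelia such as salivary and lacrimal glands, airway and intestinal goblet cells, where BK channels secrete potassium.

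In mm10, the GENCODE M21 annotation places Lrrc26 on chromosome 2 from 25289915 to 25291180 on the plus strand, as 1 transcript of 2 exons with 1190 exonic bases. Kcnma1 lies on chromosome 14 from 23289431 to 24014491 on the minus strand, spans 725.1 kb and has 38 annotated transcripts. The 250 bases before the RefSeq start of Lrrc26 are shown because the account turns on the level of Lrrc26 and this stretch lies just before its start. They lie at chr2:25289661-25289910 (GRCm38.p6, plus strand), and the capitals mark the only match to GGGCGG, the core of the GC box bound by Sp-family factors, which is read here on the opposite strand.

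Lrrc26 upstream: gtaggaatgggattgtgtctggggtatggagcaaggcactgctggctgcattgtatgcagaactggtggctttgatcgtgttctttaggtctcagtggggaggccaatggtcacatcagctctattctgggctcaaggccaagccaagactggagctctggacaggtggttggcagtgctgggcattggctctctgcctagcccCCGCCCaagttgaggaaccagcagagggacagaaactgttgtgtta

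The Lrrc26 window has a GC content of 54.8% and 2 CpG dinucleotides, against a median of 52.4% and 6 over 32851 RefSeq promoter windows of the same length. The window before the RefSeq start of Kcnma1 lies at chr14:24004206-24004455 on the minus strand. It falls within the GENCODE span of Kcnma1 and is annotated as untranslated exon, so it is not a like upstream stretch. Its GC content was 79.2%, higher than in 98.4% of windows, with 31 CpG dinucleotides and 3 matches to GGGCGG. Of all windows, 32.7% hold GGGCGG on either strand. Neither window holds TATAAA, the TATA box core found in 12.4% of windows, or TAATTA, a homeodomain core found in 4.84%. These letter matches are a description of the windows and not evidence of binding.

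The libraries held between 20527992 and 32262005 counts. As a check of the genotype labels, Taar6, which lies beside the deleted element, averaged 164 ± 5.07 normalized counts in WT, 120 ± 11.5 in het libraries and 16.7 ± 1.79 in those of homo animals (SD, n = 3 each). The 8 marker genes of mature olfactory sensory neurons (OSNs), among them Omp and Cnga2, summed to between 6657 and 7728 counts scaled to a common library size (CPM) in every library, so the defining markers of the labelled tissue were present. Libraries with replicate number 1 stood apart from numbers 2 and 3 in all genotypes: 1771 genes, or 8.96% of those tested, were called between them. WT replicate 3 had 282 CPM over 4 immune genes, where the other 8 libraries had between 47.1 and 92.8. Among 5 blood genes, the 4 haemoglobin genes were listed at 0 in every library.

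Lrrc26 was at 60.0% of its WT level in homo and at 85.7% in het. In normalized counts (raw counts divided by a size factor per library), the WT values of Lrrc26 were 354, 355 and 336, the het values 320, 264 and 311, and the homo values 234, 197 and 197. The highest homo library lay below the lowest het library, and the highest het library below the lowest WT library, so that the genotypes did not overlap. The group means were 348 ± 10.5 for WT, 299 ± 30.1 for het and 209 ± 21.4 for homo (SD, n = 3). The raw counts behind them ran from 205 to 453 per library.

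**Figure D1:**
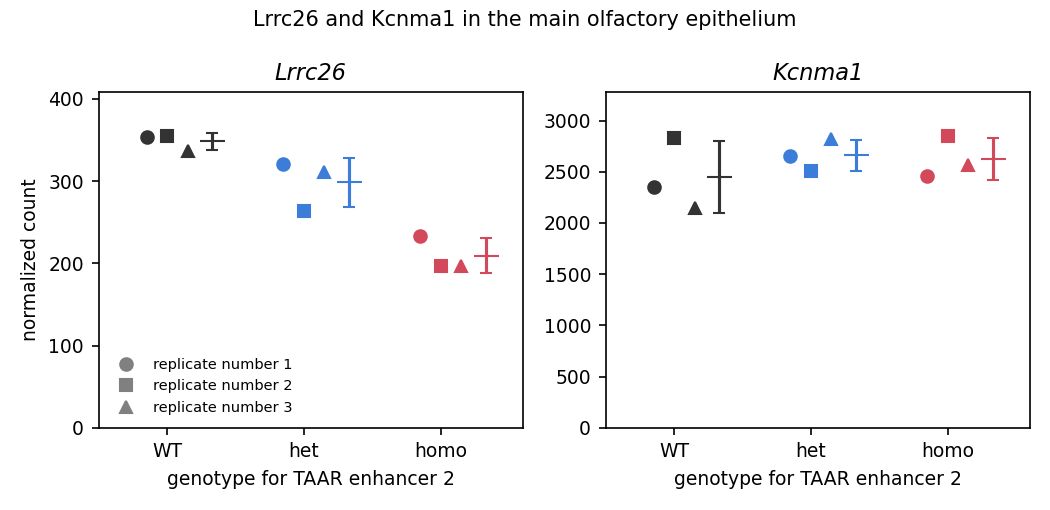
Normalized counts (y axis, from 0) of Lrrc26 (left) and Kcnma1 (right) in the 9 libraries by genotype (x axis), with the replicate number as the symbol and the mean and SD of the 3 libraries beside each group. Lrrc26 values step down from WT (336 to 355) through het (264 to 320) to homo (197 to 234) without overlap, and Kcnma1 values of the genotypes overlap between 2146 and 2851.

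The fitted log2 fold change of Lrrc26 was −0.73 (SE 0.13) for homo against WT, −0.22 (SE 0.13) for het against WT and −0.51 (SE 0.13) for homo against het. Without each library in turn, the homo against WT value ran from −0.82 to −0.68. The het against WT value ran from −0.28 to −0.13. With libraries of 1 replicate number at a time, homo was at 66.1%, 55.5% and 58.4% of WT for numbers 1, 2 and 3, and het was at 90.6%, 74.4% and 92.6%. The order WT, het, homo within all 3 numbers follows from the lack of overlap between the genotypes and adds nothing to it. Just 4 genes, all of the Taar family, passed the call for homo against WT (Benjamini-Hochberg adjusted p under 0.05 and a fold over 1.5 in edgeR), or 0.0202% of the genes tested, and Lrrc26 was not among them. The value of Lrrc26 was used to choose it and nothing is read from that count.

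Lrrc26 was chosen on WT and homo, so a step over the genotypes includes the difference that chose it. Only the place of het was no part of that choice. The counts of stepped genes are a description, and nothing about Lrrc26 is read from them. In CPM on effective library sizes, 7 genes, or 0.0354% of those tested, had every WT library above every het library and every het above every homo library. They, named after their values were seen, were Lrrc26, Taar5, Taar6, Pla2g4a (a phospholipase), Crybg3, Dsc2 (a desmosomal cadherin) and Dao (an amino acid oxidase). In the opposite order, 4 genes, or 0.0202%, were stepped. For homo below WT alone there were 536 genes, or 2.71%. Dsc2 had narrow steps, with its lowest WT library at 65.3 CPM, het libraries between 60.9 and 61.6, and a highest homo library at 58.6. For Lrrc26 these values were 13.3 for the lowest WT library, 10.5 to 12.7 for het and 9.29 for the highest homo library.

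Whether the het level of Lrrc26 lay at the midpoint of WT and homo was independent of the choice of the gene and was tested. On the log2 scale, het was 0.14 (SE 0.12) above the midpoint, with a 95% interval from −0.12 to 0.40 (edgeR, adjusted p = 1). For Kcnma1 it was 0.07 (SE 0.10) above, with an interval from −0.16 to 0.29 (edgeR, adjusted p = 1). No gene passed this test (0% of those tested), so that het could not be set apart from the midpoint for either gene, and values from 0.12 below to 0.40 above remain within the interval for Lrrc26.

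Kcnma1, the pore-forming subunit, was at 107% of its WT level in homo and at 109% in het, with no difference beyond the spread. Its normalized counts were 2356, 2834 and 2146 for WT, then 2649, 2510 and 2818 for het, and 2455, 2851 and 2565 for homo. All 3 genotypes overlapped, and the lowest library and the second highest were both WT. The means were 2445 ± 353, 2659 ± 154 and 2624 ± 205 (SD, n = 3).

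For Kcnma1 the fitted fold was 1.08 for homo against WT, with a 95% interval from 0.903 to 1.29 (log2 0.11, SE 0.11; edgeR, adjusted p = 1). For het against WT it was 1.09, from 0.91 to 1.30 (log2 0.12, SE 0.11; edgeR, adjusted p = 1). For homo against het it was 0.993, from 0.831 to 1.19 (edgeR, adjusted p = 1). A fall of Kcnma1 in homo to below 0.903 of WT therefore lay outside the interval. The Lrrc26 value, 0.603 of WT, chose that gene, and a difference between Lrrc26 and Kcnma1 was not tested. Of all genes tested, 0% were called for het against WT and 0.00506%, 1 gene, for homo against het. Within replicate numbers 1, 2 and 3, homo was at 104%, 101% and 120% of WT, and het at 112%, 88.6% and 131%. The homo value depended on WT libraries, from a log2 value of 0.01 without WT replicate 3 to 0.22 without WT replicate 2, and no alternative called it.

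Against the replicate number, Lrrc26 was 0.15 (SE 0.09) higher on the log2 scale in number 1 than in numbers 2 and 3, with a 95% interval from −0.06 to 0.35 (edgeR, adjusted p = 0.254). Kcnma1 was 0.07 lower (fitted value −0.07, SE 0.09; interval −0.27 to 0.13; edgeR, adjusted p = 0.561). Neither gene was among the 8.96% of genes called in this comparison.

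Because the libraries measure RNA and genes differ in length, levels were compared between subunits only per kb of annotated exon. Kcnmb3 and Kcnmb2, both beta subunits that can inactivate the channel, were the most abundant, with a median over the 9 libraries of 15.8 CPM per kb (range 6.90 to 23.7) and 14.5 (12.1 to 16.6). Lrrc26 followed with 10.3 (6.56 to 11.8), then Kcnma1 with 6.00 (5.002 to 6.67) and Kcnmb4, the beta subunit typical of neurons, with 5.06 (4.18 to 6.63). The ranges of Kcnmb3 and Kcnmb2 overlapped, as did those of Kcnma1 and Kcnmb4. Kcnmb2 lay above Lrrc26 in every library, and Lrrc26 and Kcnma1 overlapped only through homo libraries. This order depends on the length used. Per kb of the longest transcript, the median of Kcnmb4 was 10.3 (8.55 to 13.6), level with Lrrc26 and above Kcnma1 at 8.43 (7.02 to 9.36).

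Kcnmb1, the beta subunit of smooth muscle, had 1.01 CPM per kb (0.573 to 1.47). The gamma subunits other than Lrrc26 were low. Lrrc55 had 6 to 43 raw counts per library, Lrrc38 had 1 to 5, and Lrrc52 had 0 to 2 and was not tested. Lrrc26 was thus the only gamma subunit gene with more than 43 raw counts in any library.

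**Figure D2:**
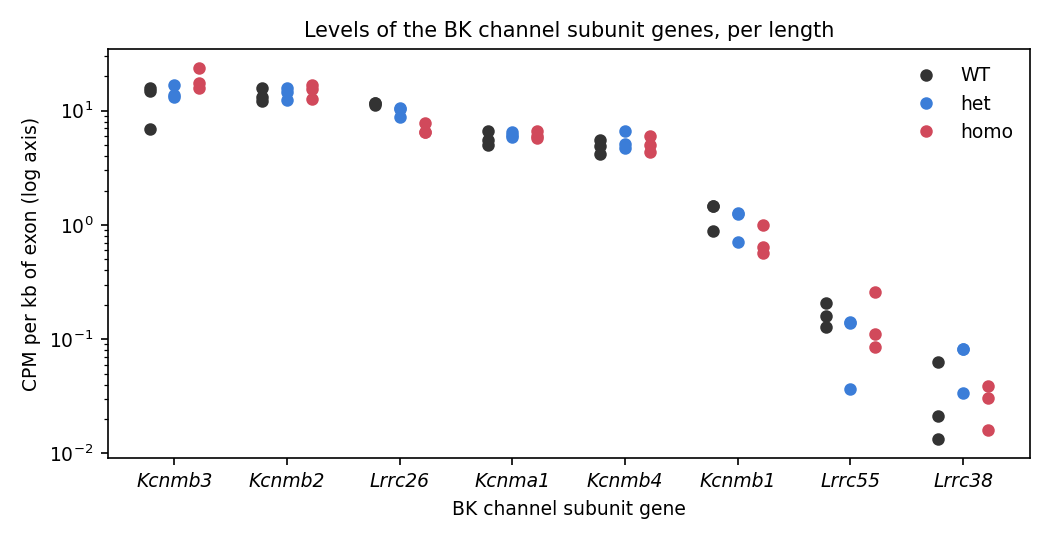
Levels of the 8 BK channel subunit genes tested, in CPM per kb of exon (y axis, log scale), with 1 point per library and WT, het and homo side by side. Lrrc26 lies above Kcnma1 in WT (11.2 to 11.8 against 5.002 to 6.58) and near it in homo (6.56 to 7.81 against 5.75 to 6.67).

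The ratio of Lrrc26 to Kcnma1 per kb of exon was 2.14, 1.79 and 2.24 for WT, then 1.73, 1.502 and 1.58 for het, and 1.36, 0.986 and 1.09 for homo. The genotypes did not overlap, and the means were 2.06 ± 0.236, 1.601 ± 0.114 and 1.146 ± 0.192 (SD, n = 3). The ratio carries the Lrrc26 values that chose the gene and is given without a test. Its size depends on the length used for Kcnma1, whose exons sum to 17.0 kb over all transcripts while its longest transcript has 12094 bases. With the longest transcript, the ratio was 1.27 to 1.59 in WT, 1.07 to 1.23 in het and 0.702 to 0.968 in homo, so that the homo libraries lay on the other side of 1.

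None of the 7 tested BK channel subunit genes other than Lrrc26 was called in any comparison of genotypes with edgeR. At an unadjusted p under 0.05, which 682 genes or 3.45% of all tested had for homo against WT, Kcnmb1 was the only one of these 7. In normalized counts Kcnmb1 was at 154, 94.9 and 156 in WT, at 134, 75.4 and 132 in het, and at 106, 60.6 and 67.4 in homo. Number 2 was the lowest library in each genotype, and WT and homo overlapped through WT replicate 2. Its fitted log2 value was −0.78 (SE 0.32) with a 95% interval from −1.50 to −0.07 (edgeR, adjusted p = 1), and leaving out WT replicate 3 gave −0.67, while leaving out homo replicate 1 gave −1.06. Within numbers 1, 2 and 3, homo was at 68.9%, 63.8% and 43.3% of WT.

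The remaining beta subunits gave other directions and none was called. Kcnmb3 had 640, 688 and 299 normalized counts in WT, where het libraries had 568, 728 and 600 and homo libraries 682, 760 and 1025. Its log2 value for homo against WT was 0.61 (SE 0.29; interval −0.04 to 1.26; edgeR, adjusted p = 1) and 0.31 without the low WT replicate 3. Kcnmb2 was at 0.14 (SE 0.15) and Kcnmb4 at 0.07 (SE 0.18), while Lrrc55 at −0.14 (SE 0.55) and Lrrc38 at −0.21 (SE 0.89) were too low to be measured to within a fold of 2. The sign of Kcnmb4, Lrrc55 and Lrrc38 turned when some libraries were left out.

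Over the 6 tested subunit genes other than Lrrc26 and Kcnma1, the median log2 value was −0.03, beside 0.00408 over all genes. For het against WT, where 253 genes or 1.28% had an unadjusted p under 0.05, none of the 7 subunit genes other than Lrrc26 did.

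**Figure D3:**
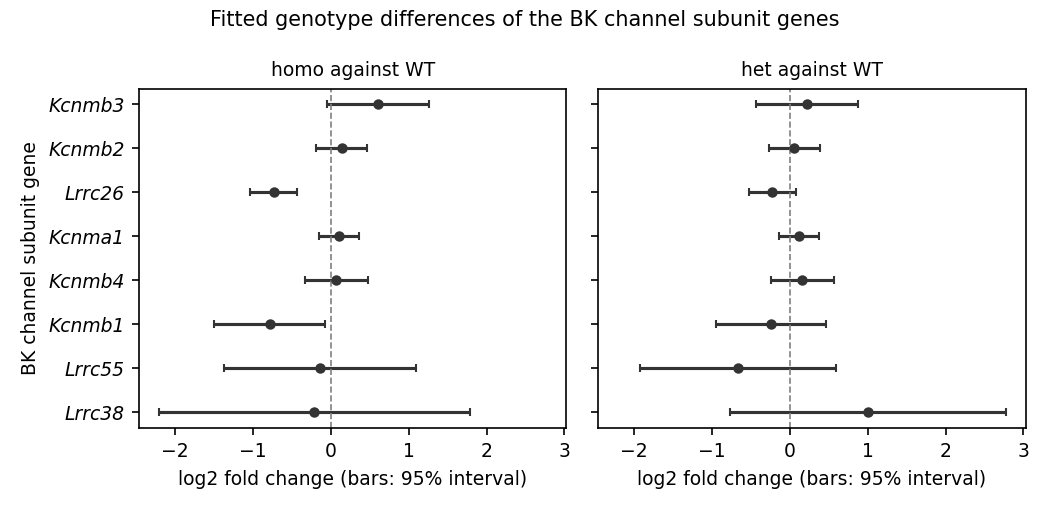
Fitted log2 fold changes (x axis) of the 8 BK channel subunit genes tested (y axis), for homo against WT (left) and het against WT (right), with points for the edgeR estimate and bars for its 95% interval. Lrrc26 (−0.73 and −0.22) was chosen for its homo and WT values and is drawn as a description, and of the others the homo interval of Kcnmb1 (−1.50 to −0.07) lies below 0, that of Kcnma1 (−0.15 to 0.37) spans it, and all 7 het intervals span 0.

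The 7 genes of other Slo-family and small- and intermediate-conductance calcium-activated potassium channels were all tested and none was called or had an unadjusted p under 0.05 for homo against WT. Their log2 values ran from −0.37 for Kcnn4, the intermediate-conductance channel of epithelia, to 0.32 for Kcnn2, with a median of −0.12. Of 12 genes for ion and water transport in secretory cells, such as Ano1, Cftr and Aqp5, 0 were called, 1 had an unadjusted p under 0.05, and the median was −0.23. The extremes were Slc4a4, a bicarbonate cotransporter, at 0.08 (SE 0.13) and Best2, a bestrophin anion channel with a mean of only 0.10 CPM, at −2.44 (SE 1.30). The gene at an unadjusted p under 0.05 was Kcne3, a beta subunit of voltage-gated potassium channels, named after its values were seen. It was at 125, 169 and 380 normalized counts in WT and at 117, 134 and 77.7 in homo, and its log2 value of −1.03 (SE 0.43) was −0.43 without WT replicate 3.

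Lrrc26 shares chromosome 2 with genes that the deletion does not touch, and its neighbours give a local comparison. Grin1, an NMDA receptor subunit, lies on the opposite strand from 25291181 to 25319187, so that its end lies at the base after the end of Lrrc26. Grin1os, a transcript antisense to Grin1, starts 39 bases after Lrrc26 on the same strand. Since the strand option of the counting is not given, reads from Grin1 and Grin1os cannot be told apart with certainty. Reads from transcripts that run past the end of Lrrc26 could, depending on that option, be counted with Grin1os.

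Grin1os averaged 280 ± 38.3 normalized counts in WT, 241 ± 17.3 in het libraries and 244 ± 18.4 in homo libraries (SD, n = 3), and its log2 value for homo against WT was −0.19 (SE 0.15; interval −0.52 to 0.13; edgeR, adjusted p = 1). It was −0.08 without WT replicate 3. Unlike Lrrc26, it had het and homo at nearly the same level. Anapc2, a subunit of the anaphase-promoting complex upstream of Lrrc26, was at 2495 ± 202, 2367 ± 96.8 and 2385 ± 61.0, with a log2 value of −0.06 (SE 0.08). Grin1 had between 7 and 30 raw counts per library, and Tmem210, which ends 725 bases before Lrrc26, had at most 5. Overlapping the 5′ part of Kcnma1 on the other strand, 4930519K11Rik had 8 to 20 raw counts, few beside the 1899 to 3614 of Kcnma1.

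Genes of glands and goblet cells, in which Lrrc26 is known to act, were lower in homo on balance, though none was called. Of 26 listed genes, 21 were tested, and the median log2 value for homo against WT was −0.74. A negative value was found for 18 (85.7%) and a positive one for 3, beside 48.7% negative over all genes tested. Lower at an unadjusted p under 0.05 were 4 of the 21 and higher 0. Among all 19775 genes tested, 528 were lower and 154 higher at that threshold, or 3.45% in either direction. The count of lower gland and goblet genes ran from 1 to 9 when libraries were left out. The median moved to −0.30 without WT replicate 3, and to −0.46 if homo replicate 3 was left out. The 4 genes, of which Ltf has the lowest value in the list and the others were named after their values were seen, were Ltf (lactoferrin), Spdef (a transcription factor of goblet cells), Obp2b (an odorant-binding protein) and Tff2 (a trefoil peptide secreted with mucus).

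Their values rested in part on WT replicate 3. Ltf was at 24380, 14700 and 68770 normalized counts in WT and at 16380, 6421 and 3895 in homo, and its log2 value of −2.01 (SE 0.69) was −1.13 without WT replicate 3. Spdef was at 318, 264 and 502 in WT, at 251, 219 and 260 in het and at 234, 214 and 197 in homo, and its value of −0.74 (SE 0.23) was −0.43 without that library. Obp2b had −1.003 (SE 0.36) and −0.95, and Tff2 had −0.96 (SE 0.40) and −0.51. The gene at the other end of the list was Dcpp1, at 0.57 (SE 0.31). Scgb1c1, an abundant gene of the list named after its values were seen, also went the other way. It averaged 16980 normalized counts in WT and 19820 in homo, or 117% of WT.

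Summed over the list, gland and goblet genes were at 8201, 10990 and 12890 CPM in WT, at 8483, 8110 and 10540 in het and at 7489, 7271 and 5742 in homo. WT and het overlapped, and all homo libraries lay below all others. Of single genes, 2.71% of those tested had all homo libraries below all WT libraries, whatever their het values. The share with homo below both WT and het was not counted, and shares of single genes do not give the rate for a sum. Abundant genes weigh most in the sum, and Ltf (155 to 2721 CPM) and Obp2b (442 to 1362) are examples. The larger part of the sum came from other genes of the list, whose shares are not given here. Relative to the WT mean the sum was at 70.0%, 68.0% and 53.7% in homo, where Lrrc26 was at 67.5%, 56.8% and 56.7%. In WT the sum spread from 76.7% to 121%, whereas Lrrc26 stayed between 96.6% and 102%. Tff3 was at 0 in every library, and Obp1b, Lcn13 and Lcn14 were not analysed here. Fewer cells of a type and less RNA per cell cannot be told apart in whole tissue, and the part of gland and goblet cells in the Lrrc26 value was not tested.

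**Figure D4:**
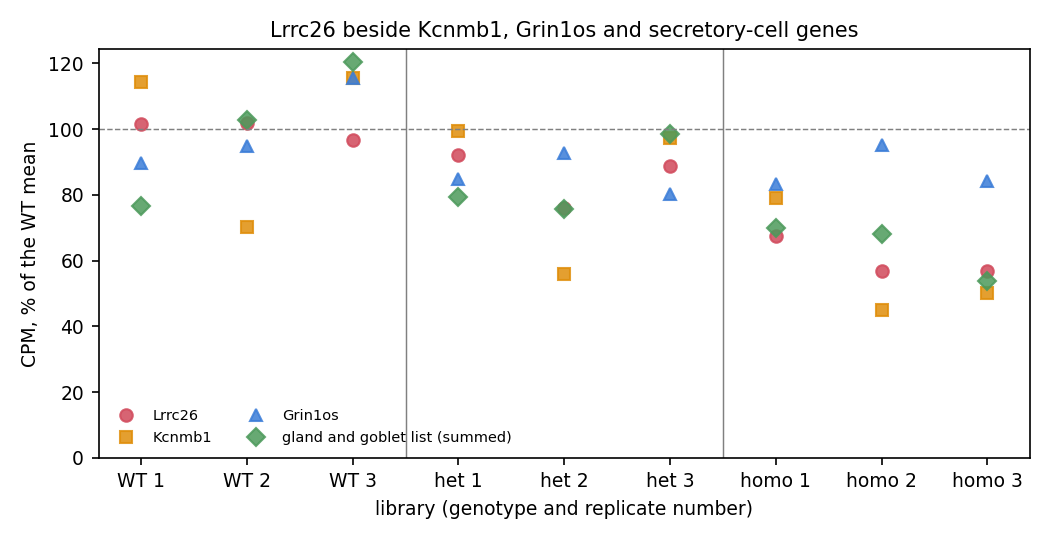
CPM as a percent of the WT mean (y axis, from 0) in each of the 9 libraries (x axis, genotype and replicate number) for Lrrc26, Kcnmb1, Grin1os and the sum of the gland and goblet genes, with a dashed line at 100%. In homo, Lrrc26 (56.7% to 67.5%) and the gland and goblet sum (53.7% to 70.0%) lie together below Grin1os, and in WT the sum spreads from 76.7% to 121% while Lrrc26 stays near 100%.

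For het against WT the gland and goblet median was −0.16, with 1 gene of 21 (Spdef) lower at an unadjusted p under 0.05, and for homo against het it was −0.17, with 0. Smooth muscle genes, relevant to Kcnmb1, had a median of 0.01 for homo against WT, with 0 of 6 at an unadjusted p under 0.05. Their sum ran from 481 to 668 CPM for WT, 536 to 612 for het and 511 to 696 for homo, so that all genotypes overlapped. Kcnmb1 also overlapped between the genotypes, and the part of smooth muscle in its value was not tested. For mature OSN genes the median was 0.08, for immature OSN genes 0.14 and for sustentacular cell genes 0.29, all with none at an unadjusted p under 0.05. Basal cell genes had −0.45, from −0.88 (SE 0.98) for Krt15 to −0.18 (SE 0.21) for Trp63, with 1 of 4, Krt14, lower at that threshold. Ciliated respiratory genes had −0.26, microvillous cell and ionocyte genes −0.03, the 4 immune genes −1.23, with WT replicate 3 high, and the lone tested blood gene, Alas2, 0.29. None of these lists held a called gene.

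Across the 9 libraries, the gene whose level most resembled that of Lrrc26 was 1700024G13Rik, with a Pearson r of 0.98 on log2 CPM among 16155 genes with a mean CPM of at least 1. Its means were 178, 153 and 117 normalized counts in WT, het and homo, and r remained 0.90 for deviations from the genotype means. Taar5 (0.95), Dsc2 (0.94), Taar6 (0.94) and Ythdf1 (0.92), a reader of methylated RNA, came next. For deviations from the genotype means, r was 0.11 for Taar6 and 0.72 for Ythdf1. Among the other subunit genes Kcnmb1 was closest by r over the libraries, at 0.81 (rank 60), with 0.75 for deviations. Kcnmb4 had a higher r of deviations, 0.78, but an r over the libraries of only 0.16.

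Kcnma1 and Lrrc26 did not vary together, with an r of −0.27, and 0.08 for deviations from the genotype means. Kcnma1 was most like Birc6 (0.98), a large inhibitor of apoptosis, Spef2 (0.97), a sperm flagellar protein, Ddx25 (0.97), an RNA helicase, Tet1 (0.97), which oxidises methylated cytosine, and Scn9a (0.97), a voltage-gated sodium channel of sensory neurons. The r of deviations of these 5 genes ran from 0.96 to 0.99. Of the subunits Kcnmb2 came closest at 0.79 (rank 571). All of these correlations are over 9 libraries that share genotypes and replicate numbers, and they describe likeness only.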

How the data were processed

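The authors prepared polyA-selected, strand-specific libraries from total MOE RNA, and their processing notes name Trimmomatic 0.36, HISAT2 2.1.0, featureCounts of Subread 1.6.2, DESeq2 1.20.0 and the build mm10 (GRCm38). The authors deposited raw counts per gene symbol and, as a signal, DESeq2-normalized counts, which are raw counts over a size factor per library; 1292 genes have raw counts only. Which annotation release and strand setting were used, and how multiply mapped reads were handled, is not given in the sources used here.

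Raw counts were tested in edgeR 4.0.16 (R 4.3.3) by quasi-likelihood with TMM normalization, 1 spread estimate over 9 libraries and two-sided p-values adjusted by Benjamini-Hochberg over 19775 genes with at least 10 counts in sum. The common dispersion was 0.0545 (coefficient of variation 23.3%). Levels are deposited normalized counts or CPM on TMM-scaled totals, and exon lengths came from GENCODE M21. Alternatives used DESeq2 1.42.0, limma 3.58.1 (voom), other scalings and filters, a block or batch term, fewer genotypes and each library left out.

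Lrrc26, Kcnma1, the gene lists and the tests were chosen with earlier results of these data known. The genes named are both members, all BK channel subunits, neighbours, examples or extremes of the lists, Taar6 and the 5 genes most like each member. Genes at an unadjusted p under 0.05 within a list, and those stepped over the genotypes, were named after their values were seen. The paper describes the animals as littermates without tying litters to the replicate numbers that the genotypes share. Since these numbers are not explained, the deviations of libraries from their genotype means were correlated over 16156 genes to look for pairs. Libraries of equal number gave 0.672, 0.45 and 0.607 for WT with het. They gave 0.786, 0.317 and 0.128 for het with homo, whereas WT with homo gave 0.516, 0.293 and −0.0969. Between het and homo some unequal numbers correlated more (0.587 and 0.519). Whether libraries of equal number are pairs was therefore not settled. The main fit used genotype only, and a block for the replicate number was run as an alternative.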

Additional observations from a re-analysis of the deposited data

How the results depend on the processing

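Lrrc26 and Kcnma1 kept their direction under every alternative run, except Kcnma1 for homo against het, which lay near 0 (−0.01 on the log2 scale, from −0.0816 to 0.0294 without each library in turn) and was 0.0249 with numbers 2 and 3 only, an alternative added after seeing the data. It was positive without het replicate 3, homo replicate 1 or homo replicate 3. Adjusted p of Kcnma1 for homo against WT ran from 0.715 to 1 over the alternatives, and of Lrrc26 against the midpoint from 0.999 to 1. With the replicate block, Kcnma1 was at 0.11 (SE 0.10) for homo against WT and Lrrc26 at −0.74, and the block changed no call of either gene. The count of BK channel subunit genes called for homo against WT was 0 with edgeR and 1 with the DESeq2 Wald test, and since the 1 was Lrrc26, whose values in this comparison chose it, nothing is read from it.

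Over all genes, 4 were called for homo against WT, 6 with the DESeq2 Wald test, 1 with limma-voom, 1 with only the genotypes compared, 1 to 4 without each library and 0 with numbers 2 and 3 only. For homo against het, 1 was called, 4 with library totals, 4 with no filter, 5 with DESeq2, 3 with the replicate block, 3 with the batch term and 0 with numbers 2 and 3 only. For het against the midpoint, DESeq2 called 1 where edgeR called 0, and between replicate numbers 1168 (without homo replicate 1) to 2221 (without WT replicate 3) were called, against 1771. Gland and goblet genes lower at an unadjusted p under 0.05 numbered 7 with the replicate block, 8 with the batch term and 9 with numbers 2 and 3 only. The cause of these changes was not tested.

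Subunit genes near 0 (Kcnmb4) or with few counts (Lrrc55 and Lrrc38) turned direction for homo against WT when libraries were left out. Kcnmb4 ran from −0.0574 (without homo replicate 1) to 0.185, Lrrc55 from −0.747 to 0.157 (without homo replicate 3), Lrrc38 from −0.652 to 0.764 (without WT replicate 3) and the neighbour Anapc2 from −0.109 to 0.000795 (without WT replicate 3). Lrrc38 was at 0.00607 with limma-voom. Lrrc52, with 8 counts in all, could not be compared.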
